A study of Homo sapiens with 2 samples.

Results

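The 8 genes described here encode enzymes of cholesterol synthesis (HMGCS1, FDPS, FDFT1, SQLE, LSS, CYP51A1 and DHCR7) and the transcription factor SREBP-2 (SREBF2). They were chosen by gene name, with earlier results of these data known, and each matched 1 of the 21262 rows of the expression table. RNA bound to LRPPRC, an RNA-binding protein of mitochondria and cytoplasm, was pulled down with an anti-LRPPRC antibody from A549 lysates, a human lung adenocarcinoma line labelled as wild type, and sequenced in 2 libraries of this 1 condition. The cells were grown in serum-containing medium with no treatment given in the labels. The series description calls the replicates technical and the study calls them biological, so the spread given here may be technical only.

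Cells make cholesterol from acetyl-CoA through mevalonate, farnesyl diphosphate, squalene and lanosterol. When sterols in the endoplasmic reticulum are low, SCAP escorts the SREBP precursors to the Golgi, proteases release their N-terminal part, and this part enters the nucleus and induces genes of sterol synthesis and uptake. When sterols are high, INSIG proteins hold SCAP and SREBP back. The values given are FPKM, fragments scaled to transcript length and to the mapped fragments of each library, so levels are compared per length. They are levels in the precipitate. Without input or IgG values, which were not analysed here, an abundant mRNA and a well captured one cannot be told apart, and with 1 condition there was no test between conditions.

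Elements known for these genes were searched for in the reference. SREBP binds sterol regulatory elements, and a core of this element, TCACNCCAC, was searched on both strands of the RefSeq promoters of GRCh38.p14, which span 250 bases before to 50 bases after a gene's start. Of the members, 6 had a promoter in that table, and FDFT1 and SQLE were not analysed here. The core was found in 1 of the 6, in SREBF2 itself, and in 396 of all 35116 promoters (1.13%). A looser form, TCACNCNAC, which includes the first, was found in SREBF2 and FDPS among the members and in 2.55% of all promoters. Both motifs were chosen after the promoters were seen. The windows are shown because they hold the match, which is in capitals.
SREBF2, chr22:41832962-41832991, plus strand, match starting 133 bases before the RefSeq start: tgacgcgccaTCACCCCACgcaccgcttcg
FDPS, chr1:155308716-155308745, plus strand, match starting 140 bases before the RefSeq start: tgcgccatgcTCACACGACggccagcagcc
The RefSeq start of SREBF2 is also the GENCODE start given with its values. That of FDPS lies 118 bases downstream of its GENCODE start, which the match precedes by 22 bases. The CCAAT box, searched as CCAAT on both strands and known as a site of NF-Y, was found in 5 of the 6 promoters, all but that of CYP51A1, and in 34.6% of all promoters. The GC box, GGGCGG, known as a site of Sp1, was found in 6 of the 6 and in 45.0% of all promoters. Of all genes listed in this report, members included, 49 had a promoter. Of these, 33 held the CCAAT box and 44 the GC box, so neither box is particular to the members. These matches are descriptions of the reference, and RIP does not measure promoters.

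The members differed 11.9 times in level, from 69.3 FPKM for FDFT1 to 5.84 for DHCR7, and their order was the same in both libraries. Of the 8, 3 had a mean above FPKM 30, the threshold the study used, namely FDFT1, SREBF2 and HMGCS1. The background used throughout was the 10441 named genes that reached 1 FPKM in each library, of which 13.6% were above 30. At FPKM 20 there were 4 members, with FDPS added, against 21.1% of the background, and at FPKM 50 only FDFT1, against 6.89%. The median of the members was 22.4 FPKM and that of the background 6.81, and 7 of the 8 members were above the background median. Because the members were chosen with earlier results of these data known, these comparisons are descriptive only. The members together had 206 FPKM in replicate 1 and 204 in replicate 2, which is 0.105% of the summed FPKM in each.

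HMGCS1, the cytosolic synthase that makes HMG-CoA, had 31.9 FPKM in replicate 1 and 28.5 in replicate 2, a mean of 30.2 ± 2.42 (SD, n = 2). Its libraries thus lay on both sides of FPKM 30, and it was above the threshold in replicate 1 only. It had the largest coefficient of variation of the members, 8.03%, against a median of 3.19% in the background. The gene lies on the minus strand of chromosome 5 of GRCh38 from 43287470 to 43313512.

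FDPS, which joins isoprenoid units into farnesyl diphosphate, had 24.9 FPKM in replicate 1 and 25.6 in replicate 2, a mean of 25.2 ± 0.502 (SD, n = 2). Both values were below FPKM 30 and below both values of HMGCS1. It lies on the plus strand of chromosome 1 from 155308748 to 155320666. Its canonical transcript of 1417 bases is the shortest of the members and has a 3′ UTR of 59 bases, the stop codon included. The annotation holds 5 processed pseudogenes that match at least 50% of this transcript with at least 90% identity, the closest of them FDPSP5 at 92.3%. Where reads are shared with them, the level of FDPS is uncertain. None of the 5 had a row under its name.

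FDFT1, squalene synthase, makes squalene from farnesyl diphosphate and so commits it to sterols. It had 68.4 FPKM in replicate 1 and 70.2 in replicate 2, a mean of 69.3 ± 1.30 (SD, n = 2), and ranked 459 among all named genes. The ratio of FDFT1 to FDPS, the enzyme before it, was 2.75 ± 0.00331 (SD, n = 2), and the values did not overlap. FDFT1 made up 33.8% of the summed mean FPKM of the members. The gene is on chromosome 8.

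SQLE, the squalene monooxygenase and a known rate-limiting step, had 8.16 FPKM in replicate 1 and 7.41 in replicate 2, a mean of 7.78 ± 0.530 (SD, n = 2). Both values were just above the background median, and FDFT1 was 8.93 ± 0.774 times higher (SD, n = 2). SQLE, also on chromosome 8, has the longest 5′ UTR of the members, 899 bases, where the background median was 141. LSS, the lanosterol synthase that closes the sterol rings, had 14.1 FPKM in replicate 1 and 13.8 in replicate 2, a mean of 13.9 ± 0.215 (SD, n = 2). It lies on the minus strand of chromosome 21 from 46188141 to 46228824. Of the 3 enzymes from squalene to lanosterol, FDFT1 was thus the highest and SQLE the lowest in each library.

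CYP51A1, the cytochrome P450 that demethylates lanosterol, had 19.9 FPKM in replicate 1 and 19.4 in replicate 2, a mean of 19.7 ± 0.328 (SD, n = 2). It lies on the minus strand of chromosome 7 from 92084987 to 92134803. Gene models without a symbol, 2 in number, share 2844 and 2827 exon bases with it on the same strand in GENCODE 44. They match 90.2% and 89.6% of the canonical transcript of CYP51A1 with 100% identity. Reads of these models and of CYP51A1 cannot be told apart there, and neither model had a row under its name. DHCR7, a reductase of the last steps, which is mutated in Smith-Lemli-Opitz syndrome, had 5.82 FPKM in replicate 1 and 5.85 in replicate 2, a mean of 5.84 ± 0.0198 (SD, n = 2). It was the lowest member in both libraries, at percentile 45.2 of the background. It lies on the minus strand of chromosome 11 from 71428193 to 71452868.

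SREBF2, the precursor of SREBP-2, had 32.9 FPKM in replicate 1 and 33.1 in replicate 2, a mean of 33.0 ± 0.146 (SD, n = 2). Both values were above FPKM 30 and above both values of HMGCS1, but the closest value of HMGCS1, 31.9, was near. It lies on the plus strand of chromosome 22 from 41833105 to 41907306, and 3423 of the 5237 bases of its canonical transcript are coding. SREBF2 also hosts MIR33A within its bounds, on the same strand and outside its exons, a microRNA known to repress the sterol exporter ABCA1. Its mature form is shown with the seed, bases 2 to 8, in capitals, followed by 1 of the 4 matches to the seed in the 3′ UTR of ABCA1, which has 3312 bases.
hsa-miR-33a-5p, chr22:41900949-41900969, plus strand: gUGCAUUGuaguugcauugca
ABCA1 3′ UTR, chr9:104784151-104784173, minus strand: atgcaattCAATGCAatgaaaac
The microRNA was not measured. The mRNA of ABCA1 had 7.75 and 7.23 FPKM in replicates 1 and 2.

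In the order of the 8 genes, no neighbours overlapped between libraries. The smallest steps were from SREBF2 to HMGCS1, a ratio of 1.10 ± 0.0930 (SD, n = 2), and from HMGCS1 to FDPS, 1.20 ± 0.120 (SD, n = 2). The first of these steps is close in size to its own SD, so the order of SREBF2 and HMGCS1 is the least firm. The other steps were 2.10 ± 0.0300 from FDFT1 to SREBF2, 1.28 ± 0.0470 from FDPS to CYP51A1, 1.41 ± 0.00182 from CYP51A1 to LSS, 1.79 ± 0.0945 from LSS to SQLE and 1.33 ± 0.0952 from SQLE to DHCR7 (SD, n = 2 each). With 2 libraries no p-value for these steps was computed. The libraries differed little for most members. The median absolute log2 ratio of the libraries was 0.04 for the members and 0.05 for the background, and 4 members were higher in replicate 1 and 4 in replicate 2. HMGCS1, with a log2 ratio of -0.16 (replicate 2 over replicate 1), and SQLE, with -0.12, were at percentiles 87.1 and 80.1 of the absolute ratio in the background.

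**Figure D1:**
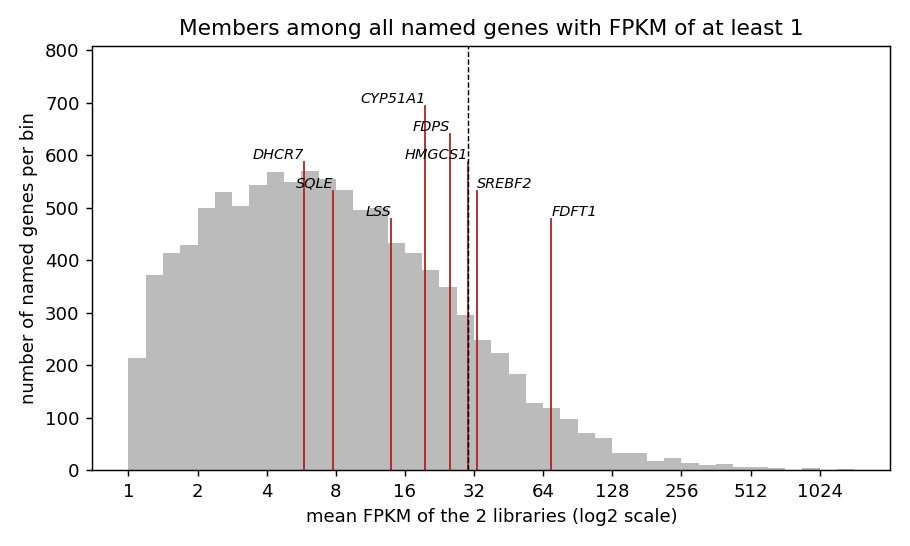
Number of named genes (y axis) by mean FPKM of the 2 libraries (x axis, log2 scale) for the 10441 genes of the background in gray, with the 8 members as red lines and FPKM 30 as a dashed line. The members run from percentile 45.2, DHCR7, to 95.6, FDFT1, and 5 of them lie above the background upper quartile of 16.9 FPKM.

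The pathway as a whole was uneven. Pairs of values from here on are those of replicate 1 and then replicate 2. Of 21 enzymes from acetyl-CoA to cholesterol, 3 had a mean above FPKM 30, namely FDFT1, HMGCS1 and LBR, beside 13.6% of the background. Of the 18 enzymes in the background these are 16.7%, a share near that of the background. The median of the 21 was 8.80 FPKM. The 7 members among these enzymes had a median of 19.7 FPKM, against 5.46 for the other 14, and made up 62.0% of the summed FPKM of the enzymes in replicate 1 and 61.3% in replicate 2. As the members were chosen with earlier results of these data known, this contrast may follow from that choice.

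**Figure D2:**
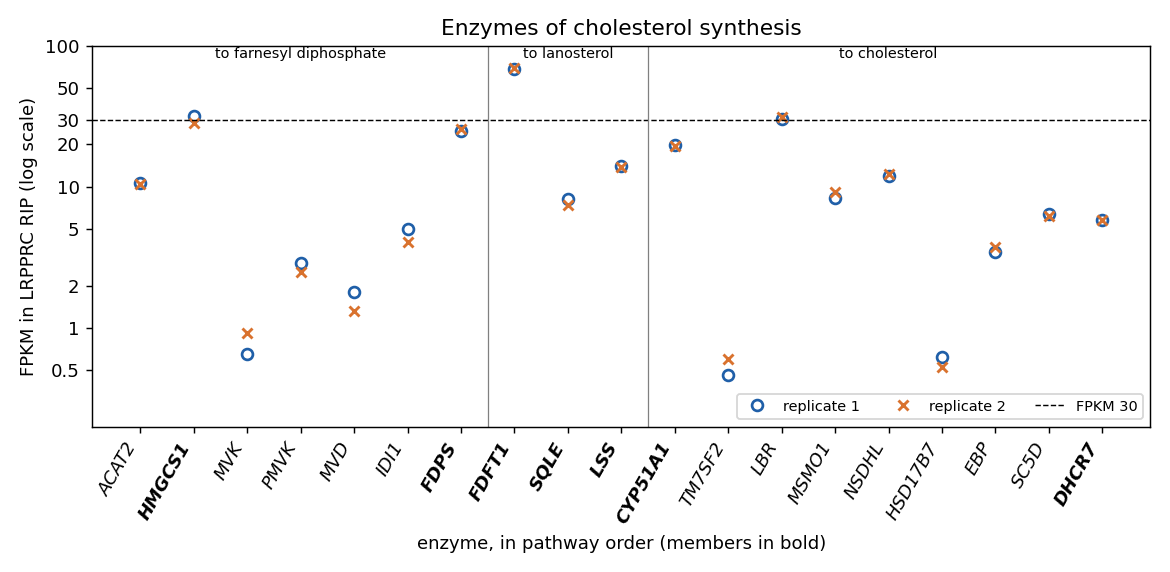
FPKM (y axis, log scale) of 19 of the 21 enzymes in pathway order (x axis), members in bold, with circles for replicate 1, crosses for replicate 2, FPKM 30 as a dashed line and gray lines at farnesyl diphosphate and lanosterol. FDFT1 is the highest and MVK, TM7SF2 and HSD17B7 are below FPKM 1 in both libraries.

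In the stretch to farnesyl diphosphate, HMGCS1 and FDPS were the highest of 8 enzymes. ACAT2, the thiolase before HMGCS1, had 10.6 FPKM in both libraries. HMGCS1 was 2.85 ± 0.217 times above ACAT2 (SD, n = 2). The enzymes from mevalonate to the isoprenoid units were low. The kinase MVK had 0.649 and 0.921 FPKM, the kinase PMVK 2.90 and 2.49, the decarboxylase MVD 1.81 and 1.31, and the isomerase IDI1 5.05 and 4.07, in replicates 1 and 2. All 4 were thus below the background median in both libraries.

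Of the 10 enzymes from lanosterol to cholesterol, LBR was the only one above FPKM 30 in both libraries, at 30.4 and 31.3, followed by CYP51A1. By the mean, this is 12.5% of the 8 that are in the background, near the 13.6% of the whole background. LBR is a sterol reductase and also the lamin B receptor of the inner nuclear membrane. TM7SF2, a reductase of the same step, had 0.466 and 0.605 FPKM. The enzymes of demethylation had 8.41 and 9.19 FPKM for MSMO1, 12.0 and 12.3 for NSDHL and 0.620 and 0.526 for HSD17B7. At the end of the pathway, the isomerase EBP had 3.48 and 3.74 FPKM and the desaturase SC5D 6.46 and 6.25. The values of DHCR7 lay between those of EBP and SC5D in both libraries.

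Among the 8 genes of the SREBP machinery, SREBF2 was the highest and the only one above FPKM 30. This is 14.3% of the 7 that are in the background, near the 13.6% of the whole background. Its paralog SREBF1, whose products also drive fatty acid synthesis, had 15.0 and 15.8 FPKM, and SREBF2 was 2.15 ± 0.0772 times higher (SD, n = 2). The proteases that cleave SREBP had similar levels to each other, 27.3 and 26.1 FPKM for MBTPS1 and 26.9 and 27.1 for MBTPS2, and their values overlapped. The escort SCAP had 5.76 and 5.63 FPKM and its partner SPRING1 (C12orf49 in the table) 6.39 and 6.52. The retention proteins differed widely from each other. INSIG1, itself an SREBP target, had 23.0 and 24.9 FPKM and INSIG2 0.514 and 0.474.

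Of 8 fatty acid synthesis genes, 5 were above FPKM 30 in both libraries, where the background share in both is 13.2%, and their median was 48.6 FPKM. The desaturase SCD had 257 and 266 FPKM and was 3.77 ± 0.0219 times above FDFT1 (SD, n = 2). The desaturase FADS1, with 108 and 107 FPKM, and the fatty acid synthase FASN, with 105 and 103, also exceeded FDFT1. The elongase ELOVL6 had 7.27 and 6.28 FPKM, and the lowest gene, the acetyl-CoA synthetase ACSS2, had 4.95 and 4.83, below both values of every member.

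No gene of the other sterol lists had a mean above FPKM 30, where the background share is 13.6%. These lists are small, with 7, 7, 2 and 9 genes in the background, so this lack is not read as a result. Of 8 genes of sterol uptake, transport and storage, the lysosomal sterol carrier NPC2 had 12.0 and 12.1 FPKM and the ubiquitin ligase MYLIP 9.53 and 8.87. Of 7 genes of the sterol-regulated degradation of pathway enzymes, the ligase RNF145 had 7.95 and 7.96 FPKM, and ERLIN2 was the lowest at 3.29 and 2.87. ERLIN1, whose product forms a complex with that of ERLIN2, had 9.28 FPKM in replicate 1 and 3.43 in replicate 2. It was the only one of the 65 listed genes whose libraries differed by more than 1.5 times.

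Of 4 genes of the liver X receptor and efflux list, ABCA1 was the highest, followed by the receptors NR1H2, with 5.98 and 6.27 FPKM, and NR1H3, with 0.510 and 0.412, and the exporter ABCG1 was the lowest, with 0.167 and 0.236. Of 9 enzymes that take isoprenoid diphosphates out of the sterol route, PDSS1, for the side chain of ubiquinone, had 14.0 and 13.9 FPKM, DHDDS, for dolichol, 7.23 and 7.46, and FNTA, a subunit of protein prenyltransferases, 5.61 and 6.84. PGGT1B, another prenyltransferase subunit, was the lowest, at 1.79 and 1.71. GGPS1, which extends farnesyl to geranylgeranyl diphosphate, had 4.13 and 4.07 FPKM, and FDPS was 6.16 ± 0.186 times higher (SD, n = 2).

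Transcript features varied widely among the members. Their canonical transcripts were from 1417 bases, FDPS, to 5350, HMGCS1, with a median of 3059 where the 10347 matched background genes had 3566. The 3′ UTR ranged from 59 bases in FDPS to 3664 in HMGCS1, with a median of 1241 in the members and 1429 in the background. The GC content was from 39.0% in HMGCS1 to 58.1% in LSS, and 4 members were above the background median of 47.2%. SREBF2, DHCR7 and LSS were close to each other in GC content, at 58.0%, 58.1% and 58.1%, but not in level.

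Length changed the order of the members. The product of FPKM and transcript length, a rough guide to the fragments behind each value, was highest for SREBF2, with 173 FPKM times kb, followed by HMGCS1 with 162 and FDFT1 with 141. FDPS fell from rank 4 to rank 6, with 35.7, below LSS, with 68.1, and CYP51A1, with 62.0. SQLE and DHCR7 were the lowest on both scales. The lengths are those of GENCODE 44, which may not be the models the authors used, so the product is approximate.

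Genes nearest to each member in level were found by the distance on log2(FPKM + 1) over the 2 libraries among the other 16769 named genes. They were MRPL20 and ATXN2L for FDFT1, GABPB1 and PHC1 for SREBF2, NUF2 and DCAF8 for HMGCS1, and MCM10 and TNPO3 for FDPS. For the lower members they were LAMP2 and KLHL36 for CYP51A1, EYA3 and TSPAN17 for LSS, HES1 and G0S2 for SQLE, and SMAD2 and TBC1D16 for DHCR7. The distances were between 0.00138, for MRPL20, and 0.0265, for DCAF8. With 2 libraries of 1 condition this is a match of levels, not of a pattern. The members were far below the mRNA of LRPPRC itself, which had 184 FPKM in replicate 1 and 176 in replicate 2.

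Some reads may belong to genes on the other strand. All members but SQLE and DHCR7 share exon bases with a gene on the opposite strand in GENCODE 44, the most being HMGCS1, with 2497 bases of a long noncoding RNA, followed by SREBF2, with 731 bases of SREBF2-AS1, and FDPS, with 693 bases of RUSC1-AS1. The libraries were made with a stranded kit, but no source used here says whether the quantification used the strand. The cell line label was checked against markers. Of 10 genes of A549 cells, 9 were at 1 FPKM or more, led by the keratin KRT8 with 337 ± 3.11 (SD, n = 2), and the epithelial EPCAM was low at 0.402 and 0.459 FPKM. Of the markers of other cell types with a row, none of 3 for leukocytes, none of 4 for endothelium and 1 of 5 for fibroblasts, COL1A2 with 1.36, reached 1 FPKM.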

How the data were processed

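The authors made stranded total RNA libraries of LRPPRC RIP from A549 cells. Per the methods and the submitters' processing notes, reads were trimmed with cutadapt 1.18, mapped to GRCh38 by HISAT2 2.1.0, sorted with SAMtools and quantified by StringTie 1.3.3b with Ensembl genes. The authors deposited FPKM per gene and library, without pooling. The table has 16802 named rows and 4460 assembled ones, and some names are older than the annotation release the methods name. Sequencing depth is not given by FPKM, so no counting intervals were computed.

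Each gene's mean, SD and rank, and the counts of genes above FPKM 30, were computed. The background was named genes reaching 1 FPKM in each library, and the higher of the rows sharing a name was kept (32 rows). Log2 ratios used a pseudocount of 1. The members, gene lists and thresholds were chosen with earlier results of these data known. Named were all members, all synthesis enzymes and SREBP machinery genes, the 3 highest and the lowest gene of each other list, 2 nearest genes per member and LRPPRC. Of the listed genes, 5 are not reported here by name. GGPS1 and the markers named were chosen after their values were seen. ELOVL6, neither among the 3 highest nor the lowest of its list, was also named. Lengths and overlaps came from canonical transcripts of GENCODE 44. In all lengths given, the stop codon is counted in the 3′ UTR and not in the coding part. Copies were sought among its transcripts with blastn 2.17.0. Python 3.11.15, numpy 2.4.6, pandas 2.3.3 and matplotlib 3.10.9 were used.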

Additional observations from a re-analysis of the deposited data

How the results depend on the processing

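The order of the 8 members was the same with either library alone. At FPKM 50 instead of 30, 1 member and 1 of the 21 enzymes remained above the threshold, FDFT1 in both cases. At FPKM 20 there were 4 of each. Without replicate 1, HMGCS1 was at 28.5 FPKM and no longer above 30, so the counts of members and of enzymes above 30 ranged from 2 to 3 when either library was left out. The median of the members was 22.4 to 22.5 FPKM with either library alone and 22.5 with replicate 2 rescaled by the median ratio of all genes. Its percentile was 81.3 in the background, 81.1 to 81.4 with either library alone, 85.5 among named genes of at least 0.1 FPKM and 88.4 among all named genes, because these backgrounds add low genes. With FPKM multiplied by transcript length, 3 of the 8 members kept their rank. No paired analysis was possible because both libraries belong to the same condition. FPKM does not give the sequencing depth, so how precise low values such as that of ABCG1 are is unknown.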
